A study of Mus musculus with 912 samples.

Results

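Arc was followed as 1 row of the 42772 genes of the count tables and of the 40198 genes of the log2 tables, through single nuclei sorted from the mouse hippocampus. Of 912 nuclei deposited, 818 passed thresholds of 100000 aligned reads and 4000 detected genes, and 338 of these came from home cage (HC) mice or from mice taken 1 h after 15 min in an unfamiliar environment (NE). The other 480 were dentate gyrus (DG) nuclei sorted for ARC protein. All 31 mice were wild-type C57BL6 females of 7.75 to 9 weeks, with no transgene or drug in any group.

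The HC and 1 h nuclei carried a predicted cell type from the submitters: DG granule cells, CA1, CA3 and subiculum (Sub) pyramidal cells, VIP, Ivy and Pvalb interneurons, and thalamus (Th), for which no markers were checked. HC nuclei were FOS-, and 1 h nuclei were sorted as FOS+ or FOS- by an antibody. The ARC-sorted nuclei were taken as PROX1+CTIP2+, without the NEUN stain, and have no predicted type. They came from mice 4 h or 5 h after environment A (ARC+FOS-), and from mice exposed to A and then, 4 h later, either to A again (A>A) or to a different environment C (A>C). These last mice were taken 1 h after the later exposure, and their nuclei were sorted as ARC+FOS+ or ARC+FOS-. Nuclei of 1 mouse share their animal, so groups were compared over mice.

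Arc is an immediate early gene: neuronal activity switches on its transcription through kinase signalling and factors such as SRF, MEF2 and CREB, without new protein synthesis. Its mRNA travels to dendrites, and the ARC protein promotes the removal of AMPA receptors from synapses, enters the nucleus, and can assemble into capsid-like particles derived from a retrotransposon Gag protein. Fos, used for the sort, is an early gene for a transcription factor. A nucleus holds newly made or retained RNA, whereas the antibody reads protein, so the 2 readouts need not follow the same time course.

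The gene (ENSMUSG00000022602) lies at chr15:74669083-74672570 of GRCm38 on the minus strand. The transcript Arc-201 has 3 exons, its coding sequence lies within the first (74671185 to 74672372), and 0 other annotated genes overlap the locus, so reads without strand could not be shared with a neighbour on the opposite strand. Levels are given as log2(TPM+1), a scale per transcript length. A nucleus is called Arc-high above 2.5 on that scale. The study used this level only to leave out FOS- nuclei with Arc, and here it is applied to every group. Of 818 nuclei, 509 (62.2%) were Arc-high, 187 had no Arc count and 11 lay between 2 and 3, so few nuclei sat near that line. The lowest Arc-high nucleus was at 2.62 and the highest of the others at 2.49.

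Depth ranged from 142275 to 5885216 counts per nucleus (median 1254500). The summed DG markers (Prox1, C1ql2, Dsp, Tdo2, Lct) had a median of 855 CPM in DG nuclei and 708 in the ARC-sorted nuclei, against 0 in CA1 nuclei. CA1 markers had a median of 732 CPM in CA1 nuclei. In Sub nuclei the CA1 markers (median 258 CPM) exceeded the Sub markers (208), so that label is weakly marked here. GABAergic markers had medians of 1813 to 4733 CPM in the VIP, Ivy and Pvalb nuclei. VIP markers (7141 CPM) and Ivy markers (1135) had their highest medians in the nuclei of their label. Pvalb markers had a median of 698 CPM in Pvalb nuclei, under 965 in Ivy and 750 in VIP nuclei, so that label is weakly marked too. CA3 markers had a median of 433 CPM in CA3 nuclei, but 543 in Pvalb nuclei. Markers of glia and endothelium had medians of 18.4 to 184 CPM across the DG groups, and their part in the results was not tested.

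In DG granule cells, Arc separated FOS+ from FOS- nuclei almost completely. All 26 DG FOS+ nuclei had Arc counts, from 13 to 9245, and 25 were Arc-high with a mean level of 9.75 ± 1.78 (SD over the nuclei of 1 mouse). The 27 FOS- nuclei of that mouse held 1 to 8 counts each, with a mean level of 0.99 ± 0.41 and a maximum of 2.06. The ranges lay close but did not overlap, as the lowest FOS+ nucleus was at 2.13. Of the 2 DG 1 h FOS- nuclei removed by the thresholds, 1 was Arc-high. In the 2 HC mice with at least 2 DG nuclei the mean levels were 0.61 and 0.37, and 1 of 26 HC nuclei was Arc-high, at 6.52.

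**Figure D1:**
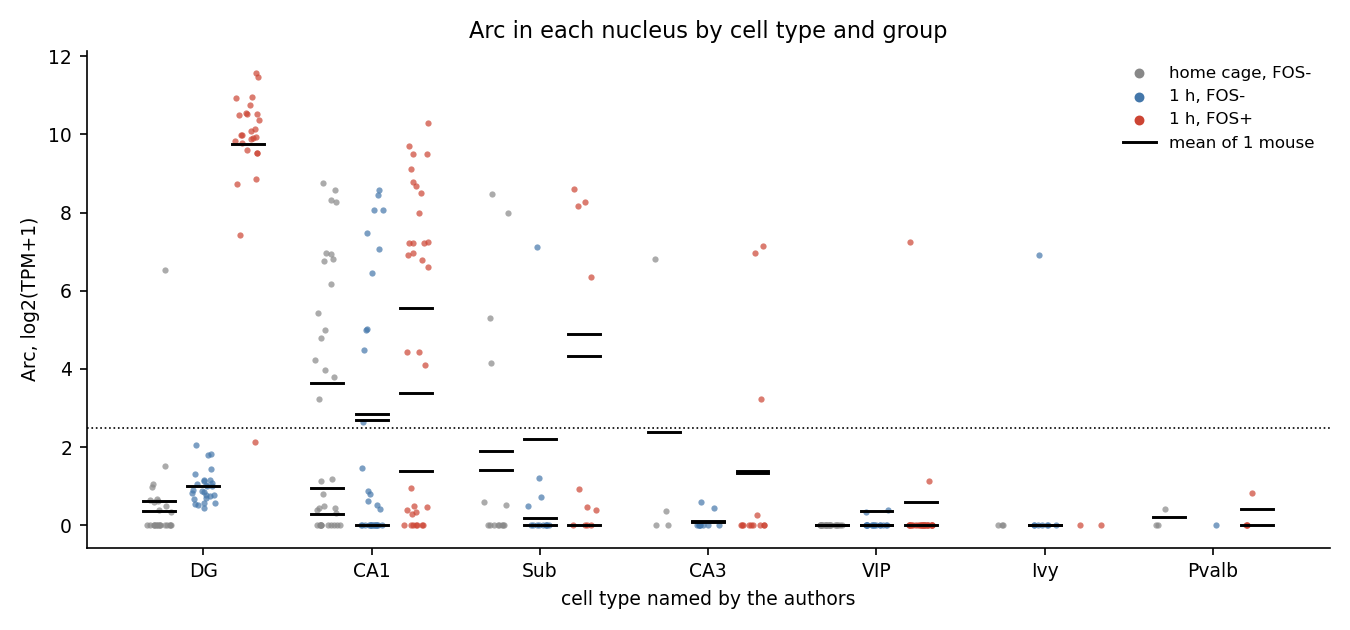
Arc level as log2(TPM+1) in nuclei of each predicted cell type, by exposure and FOS sort; points are nuclei, bars the mean of 1 mouse, and the dotted line 2.5. DG FOS+ nuclei lie near 9.75, while DG FOS- and HC nuclei lie near 0.99 and 0.53 and most interneurons at 0.

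Between the FOS+ and FOS- sums of the DG, Arc differed by 10.57 (log2 fold change, SE 1.30, edgeR quasi-likelihood adjusted p = 0.00176), first by p among 24408 genes, of which 0.0451% were called. Both sums came from 1 mouse, so the spread was taken from the other groups of the fit. With the animal as a block the value was 10.58 and the adjusted p 0.144. Against HC, the FOS+ difference was 9.47 (SE 0.90, edgeR adjusted p = 1.38e-05), with 0.258% of genes called. FOS- against HC gave -1.10 (SE 0.80, edgeR adjusted p = 1), with 0.0041% of genes called, all higher. That sign rested on the 1 Arc-high HC nucleus, since it became 2.05 without it and 1.48 without its mouse. HC and 1 h DG nuclei carry different date codes in their sample names, so exposure and date cannot be told apart there.

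CA1 pyramidal cells held Arc at every state, in some nuclei of each group. Arc-high nuclei were 16 of 35 in HC, 11 of 32 among 1 h FOS- and 20 of 33 among 1 h FOS+ nuclei. By mouse, the FOS+ mean levels were 5.57 (24 nuclei), 3.38 (4 nuclei) and 1.39 (5 nuclei). The FOS- means were 2.85, 0 and 2.70, and the HC means 3.64, 0.28 and 0.95. The 3 groups overlapped. FOS+ against FOS- gave 2.13 (SE 2.23, edgeR adjusted p = 1), and of all genes tested 0% were called there, with 653 at an unadjusted p under 0.05 by edgeR and 247 called by DESeq2. Leaving out FOS- nuclei above 2.5, as the study did, moved the value to 10.20 with no call, as that step removes Arc-high nuclei from 1 side by construction.

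Within CA1, the sort gate went with the Arc share. Among PROX1-CTIP2+ nuclei 15 of 27 HC, 8 of 21 FOS- and 17 of 24 FOS+ nuclei were Arc-high. Among PROX1-CTIP2- nuclei the counts were 1 of 8, 3 of 11 and 3 of 9. All CTIP2+ nuclei of CA1 shared 1 date code and came from 1 mouse per exposure, so gate, date and mouse cannot be told apart.

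In subiculum, 4 of 14 HC, 1 of 13 FOS- and 4 of 11 FOS+ nuclei were Arc-high. The FOS+ mice had means of 4.90, 4.33 and 0. In CA3, 1 of 4 HC, 0 of 10 FOS- and 3 of 13 FOS+ nuclei were Arc-high, and the 2 FOS+ mice had means of 1.33 and 1.39 against 0.09 and 0.12 for FOS-. FOS+ against FOS- was 3.19 (SE 2.64, edgeR adjusted p = 0.899) in subiculum and 8.42 (SE 1.47, edgeR adjusted p = 0.802) in CA3. The subiculum value ran from 2.13 without mouse 4 to 9.82 without mouse 2, and was 5.33 with the animal as a block, with no call. DESeq2 called the CA3 difference (8.55, adjusted p = 2.06e-05).

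Interneurons were nearly free of Arc in every sort. Of 87 interneuron nuclei 80 had no Arc count and 2 were Arc-high: 1 VIP FOS+ nucleus at 7.25 with 298 counts, and 1 Ivy FOS- nucleus at 6.92 with 332 counts. The other 26 of 27 VIP FOS+ nuclei were at or under 1.14. The thresholds removed 10 VIP 1 h FOS- nuclei, of which 1 was Arc-high, and 4 HC VIP nuclei, of which 0 were. All 22 HC VIP nuclei were at 0, which allows a share of up to 13.6% (counting error only). With a floor of 3 counts pooled over these nuclei (0.235 CPM), HC CA1 at 144 CPM was 613-fold above that floor. The floor covers the counting of reads only. It is no bound over nuclei or mice, as the 1 Arc-high VIP nucleus alone held 298 counts. The 613-fold value rests on the HC mouse with 27 CA1 nuclei, and without that mouse CA1 was at 2.09 CPM and 8.90-fold above the floor. The 8 Pvalb nuclei were all under 2.5, and the 7 thalamus nuclei had no Arc count. Arc did not pass the count filter of the VIP fit, so FOS+ against FOS- has no edgeR value there.

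The levels by group, as means over mice with at least 2 nuclei, ran from 9.75 in DG 1 h FOS+ (1 mouse) and 9.67 ± 0.20 in A>C ARC+FOS+ (SD, n = 2) to 0 in HC VIP (n = 3). Next came A>A ARC+FOS+ at 9.21 ± 0.50 (n = 6), 4 h at 8.80 ± 0.16 (n = 2), A>A ARC+FOS- at 7.99 ± 0.65 (n = 6), A>C ARC+FOS- at 6.33 ± 1.68 (n = 2) and 5 h at 5.47 ± 1.67 (n = 4). Outside the DG, CA1 FOS+ was at 3.45 ± 2.09 (n = 3) and subiculum FOS+ at 3.08 ± 2.68 (n = 3). CA1 FOS- stood at 1.85 ± 1.60 (n = 3) and CA1 HC at 1.63 ± 1.78 (n = 3). The spreads (SD) of these CA1 and subiculum groups overlapped, as did those of 5 h and A>C ARC+FOS-. Neither subiculum against CA1 nor 5 h against A>C ARC+FOS- was tested. With 2 to 4 mice per group, such overlap does not show equal levels. In rank by mean level among 40198 genes, Arc was 47th in DG FOS+, 1502nd in CA1 FOS+ and 11971st in HC DG nuclei.

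Across cell types fitted together, edgeR called no comparison of Arc, while DESeq2 called HC CA1 against HC VIP, where the HC VIP nuclei have no count. HC CA1 against HC DG gave 3.61 (SE 3.01, edgeR adjusted p = 0.868), and FOS+ DG against FOS+ CA1 gave 3.44 (SE 2.94, edgeR adjusted p = 1). The FOS+ against FOS- difference was larger in DG than in CA1 by 8.49 (SE 5.70, edgeR adjusted p = 1). At 1 h the DG arm is 1 mouse. Without the HC mouse with 27 CA1 nuclei, HC CA1 against HC DG was -1.24.

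ARC-sorted nuclei were mostly rich in Arc mRNA, but not all. Of 480 nuclei, 421 (87.7%) were Arc-high, 59 were not and 12 had no Arc count. Among ARC+FOS+ nuclei 171 of 178 (96.1%) were Arc-high, and among ARC+FOS- nuclei 250 of 302 (82.8%). Thus 59 nuclei that passed the ARC gate lay at or under 2.5 for Arc mRNA, of which 52 were FOS-. Sort purity and missed transcripts were not assessed, so whether protein and mRNA parted in these nuclei was not tested. No nuclei sorted as ARC- were analysed here, so the reverse case has no value.

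At 4 h, 60 of 68 ARC+FOS- nuclei were Arc-high and 49 exceeded 9. The 2 mice had mean levels of 8.68 and 8.91, close to each other. At 5 h, 43 of 59 were Arc-high, 13 exceeded 9 and 5 had no count. The 4 mice had means of 6.83 and 6.86 under 1 date code and 4.70 (10 nuclei) and 3.48 (6 nuclei) under another, so the 5 h mice lay under both 4 h mice. The thresholds kept only these 10 and 6 of the 24 nuclei deposited for each of the last 2 mice. Of the 37 nuclei removed at 5 h, 22 were Arc-high.

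**Figure D2:**
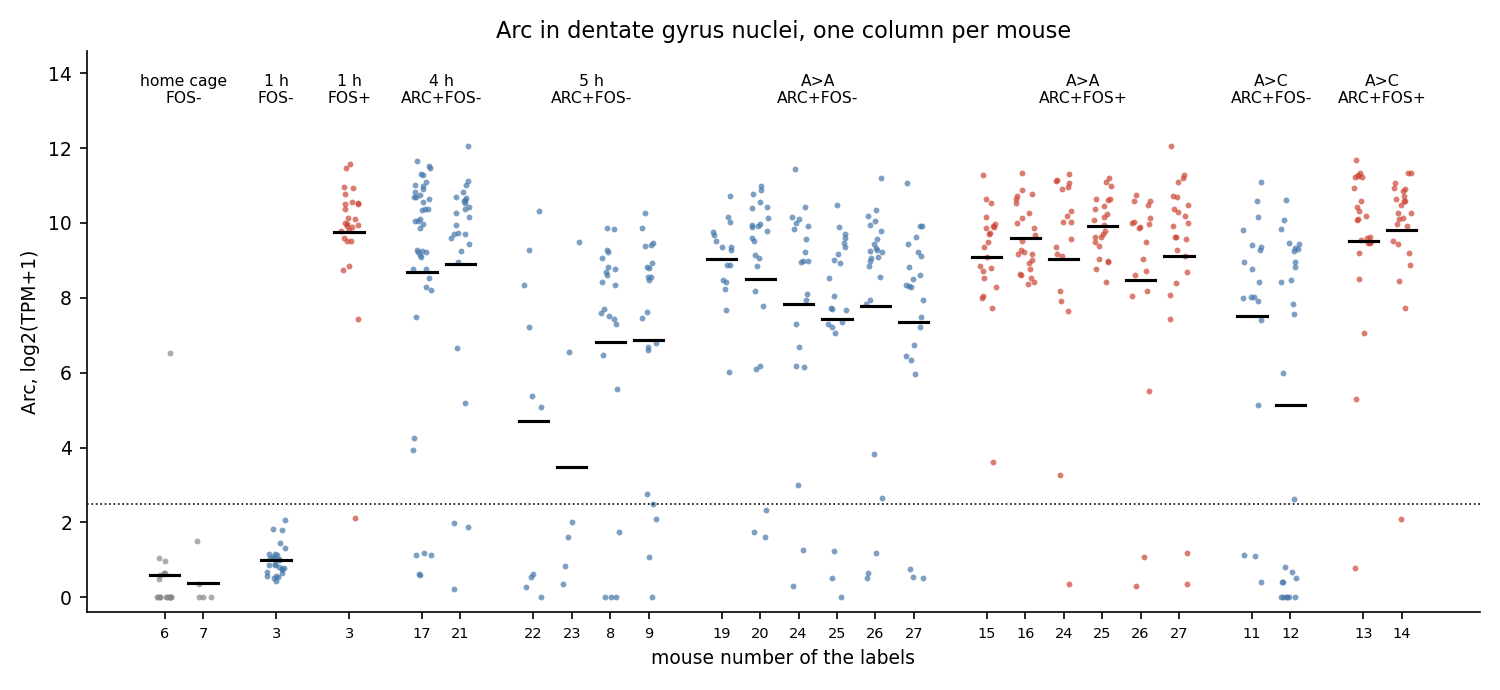
Arc level as log2(TPM+1) of DG nuclei, in 1 column per mouse (numbers of the labels) under its group; points are nuclei, bars the mean of the mouse, and the dotted line 2.5. The means of the 2 mice at 4 h stand at 8.68 and 8.91 and the 4 at 5 h between 3.48 and 6.86, while HC mice stand at 0.61 and 0.37.

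Against HC, Arc was higher at 4 h by 9.36 (SE 0.88, edgeR adjusted p = 1.35e-05; 0.221% of genes called) and at 5 h by 7.24 (SE 0.79, edgeR adjusted p = 1.14e-04; 0.168% called). These comparisons share the HC mice and the ARC sort selects on the gene's own product. At 5 h against 4 h the value was -2.12 (SE 0.51, edgeR adjusted p = 0.685). DESeq2 called it (-1.95, adjusted p = 0.00533), and without the 5 h mice of the later date, an alternative chosen after seeing the data, the edgeR value was -1.99. Of all genes 0% were called by edgeR in this comparison, with 1342 at an unadjusted p under 0.05. At 4 h against 1 h FOS+, Arc differed by -0.11 (SE 0.74, edgeR adjusted p = 1; 0.0164% called). Time, sort and date cannot be told apart in these values.

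After re-exposure to the same environment, FOS+ nuclei held more Arc than FOS- nuclei although both were ARC+. The A>A ARC+FOS+ mice had mean levels of 9.10, 9.60, 9.04, 9.92, 8.49 and 9.12. The ARC+FOS- mice had 9.03, 8.49, 7.84, 7.43, 7.78 and 7.36. The groups overlapped through the highest FOS- and lowest FOS+ mice. Means were 9.21 ± 0.50 and 7.99 ± 0.65 (SD, n = 6 each), a difference of 1.22 (two-sided exact permutation p = 0.00866, 0.0173 adjusted over 2 tests).

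Of these mice, 4 gave both sorts, which the permutation treats as separate. In them FOS+ exceeded FOS- by 1.20, 2.49, 0.70 and 1.76, higher in 4 of 4, with a mean of 1.54 and an exact sign-flip p of 0.125, the smallest that 4 pairs allow. Each pair also shares its date code, so these are the within-date values. On summed counts, which weight nuclei by their counts, the difference was 0.60 (SE 0.35, edgeR adjusted p = 0.460; 0.0369% of genes called). With the animal as a block it was 1.04 (SE 0.21, unadjusted p = 0.00468, edgeR adjusted p = 0.513), and with mice split by date code 0.36. The share of nuclei with any Arc count was at or near 100% in both sorts and could not separate them. At an expected 100000 counts per nucleus that share differed by 5.08 percentage points (two-sided exact permutation p = 0.0801). The Arc-high share, a measure added after seeing the data, differed by 6.23 points (two-sided exact permutation p = 0.0628).

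**Figure D3:**
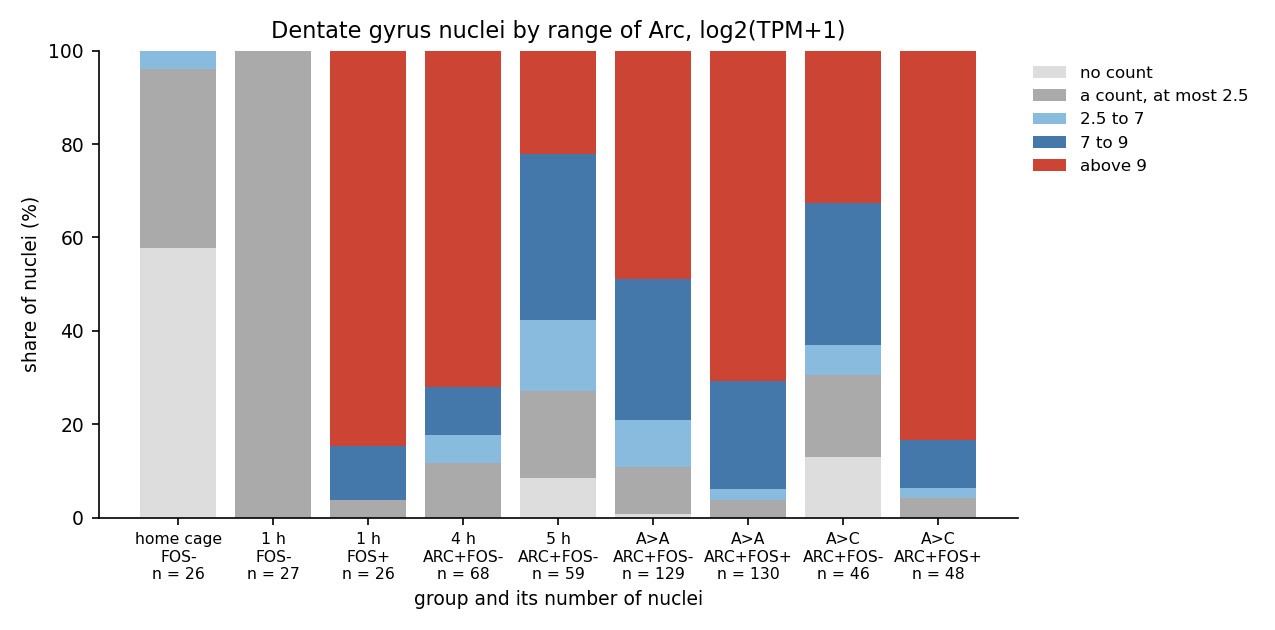
Share of nuclei (percent) in each DG group by range of Arc level in log2(TPM+1); colours are ranges, and n is the number of nuclei. Above 9 lie 92 of 130 A>A ARC+FOS+ nuclei and 63 of 129 A>A ARC+FOS- nuclei, and 40 of 48 and 15 of 46 in A>C.

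In A>C, the ARC+FOS+ mice had means of 9.53 and 9.81 and the ARC+FOS- mice 7.52 and 5.14, without overlap. Arc-high nuclei were 46 of 48 and 32 of 46. FOS+ against FOS- was 1.69 (SE 0.63, edgeR adjusted p = 0.898), and 0% of genes were called by edgeR, with 1088 at an unadjusted p under 0.05 and 1113 called by DESeq2. The 2 sorts came from different mice and date codes, which cannot be told apart from the sort. Between environments, A>A against A>C was -0.43 (SE 0.49, edgeR adjusted p = 1) in FOS+ and 0.66 (SE 0.52, edgeR adjusted p = 1) in FOS- nuclei. The latter ran from 0.25 without A>C mouse 12 to 1.24 without A>C mouse 11. A>A ARC+FOS- against 5 h gave 1.19 (SE 0.41, edgeR adjusted p = 0.411).

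In the DG, Fos mRNA was rarer than Arc mRNA: 80 nuclei had Fos above 2.5 and 447 of 559 were Arc-high. Of these 559 nuclei, 480 were chosen for ARC protein, and 302 of those also as FOS-, so the sort itself favours that order. In the DG 1 h FOS+ nuclei, not sorted for ARC, the counts were 10 and 25 of 26. Interneurons, also not sorted for ARC, went the other way by count, with 12 nuclei above 2.5 for Fos and 2 for Arc. Of those 12, 8 were among the 33 interneurons sorted as FOS+, a sort that itself favours Fos. In the DG, all 80 nuclei with Fos above 2.5 were also Arc-high, 70 of them ARC-sorted. In CA1, CA3 and subiculum the count was 16 of 29, and in interneurons 0 of 12. Most DG nuclei of the same sorts without Fos above 2.5 were Arc-high too. Their share was 93.8% in DG 1 h FOS+ and 66.7% (A>C ARC+FOS-) to 95% (A>A ARC+FOS+) in the ARC-sorted groups. In the other direction, 288 of the 421 Arc-high ARC-sorted nuclei (68.4%) had no Fos count, and so did 110 of the 171 that were also FOS+ by protein (64.3%). Within ARC-sorted groups, Pearson's r of the Arc and Fos levels over nuclei ran from 0.03 to 0.22, a description of nuclei that share mice. With log10 depth, r of Arc ran from -0.48 to 0.20.

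Among 28 early activity genes, Arc had company in the DG. At 1 h, FOS+ against FOS-, 3 were called higher and 0 lower (0.0328% of all genes were called higher and 0.0123% lower). They were Inhba, a subunit of activin (9.75, SE 1.69, edgeR adjusted p = 0.0355), Bdnf, a neurotrophin (3.56, SE 0.64, adjusted p = 0.0427), and Synpo, of the spine apparatus (3.31, SE 0.57, adjusted p = 0.0343). With the animal as a block none of these 3 was called, with adjusted p of 0.203, 0.351 and 0.550. The list's median was 4.75 against 0 for all genes. The list was chosen with earlier results of these data known, and the study named Inhba, Bdnf and Synpo as raised by activity in these nuclei. These calls and the median are thus not independent of the study. Fos itself gave 11.14 (SE 5.40), with no call.

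Against HC, 6 of the 28 were higher at 1 h FOS+ (0.229% of genes), namely Homer1, Bdnf, Nptx2, Inhba, Plk2 and Synpo, and 0 were lower (0.0287% of genes). At 4 h (0.221%) and 5 h (0.164%) 5 were higher, the same list without Homer1, and 0 were lower, against 0% and 0.0041% of genes. Synpo was at 4.97, 4.70 and 3.10 in these 3 comparisons, and Nptx2, which clusters AMPA receptors, at 5.64, 5.69 and 5.83. In A>A ARC+FOS+ against ARC+FOS- 0 of 28 were called in either direction (0.0246% of genes higher, 0.0123% lower), and the median was 1.27 against -0.02. There Homer1, a postsynaptic scaffold, was at 3.35 (SE 0.63) and missed the threshold.

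**Figure D4:**
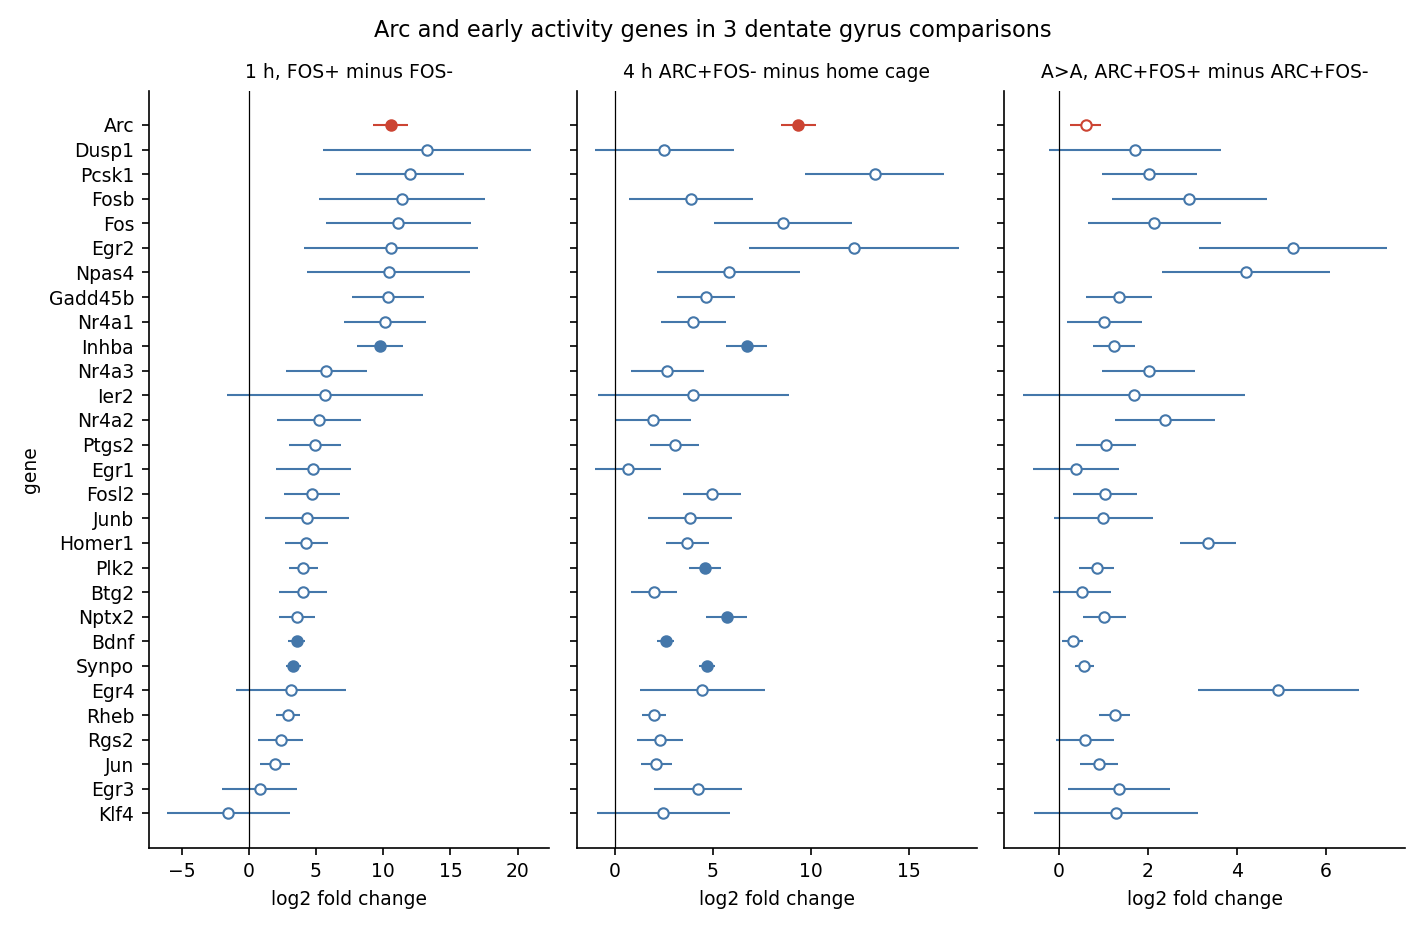
Log2 fold change of Arc and the early activity genes (SE as lines) in 3 DG comparisons, FOS+ minus FOS- at 1 h, 4 h minus HC, and the A>A sorts; filled points passed an adjusted p of 0.05. Arc stands at 10.57 between FOS+ and FOS- at 1 h and at 0.60 between the A>A sorts.

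Of genes upstream of Arc transcription (Srf, Mef2 genes, Creb1, NMDA receptor subunits and others), edgeR called 0 of 21 measured in any DG comparison, where it called 0 to 0.258% of all genes, so that few or no calls in a list of this size are what the background share gives. Grin2b, an NMDA receptor subunit, was at 0.39 (SE 0.37) between FOS+ and FOS- at 1 h, and Mkl2, an SRF coactivator, at 0.61 (SE 0.49). Among 25 partners and regulators of ARC, Baiap2, a postsynaptic actin scaffold, was higher in 1 h FOS+ against HC (4.10, SE 0.54, edgeR adjusted p = 0.0012; 0.229% of genes higher) and in A>A FOS+ against FOS- (1.73, SE 0.26, edgeR adjusted p = 0.0174; 0.0246% of genes higher). The latter call was lost in 6 of 19 alternatives. Gria2, an AMPA receptor subunit and the most abundant of the list, was at -0.27 (SE 0.34) between FOS+ and FOS- at 1 h.

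By Pearson's r of log2(CPM+1) over 46 mouse-by-group sums of all cell types, the genes most like Arc were Plk2 (0.88), Spry2 (0.88) and Lingo1 (0.86) among 12992 genes, with Synpo at 0.85 and Inhba at 0.84. Over the 26 DG sums they were Inhba (0.96), Lingo1 (0.95), Pcdh8 (0.94) and Acan (0.94) among 12056 genes. Fos ranked 603rd (r = 0.54) over all sums and 258th (r = 0.62) over the DG sums. The order depends on the measure. By Spearman's rho over the DG sums, Inhba was at 0.87, Lingo1 at 0.77, Pcdh8 at 0.85 and Acan at 0.61, with Fos at 0.71. Sums share mice and depth, so these are descriptions.

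Low Arc counts in nuclei that were not Arc-high went with the date code. Of the 13 date codes with at least 5 such nuclei, the 7 at 500 Arc CPM or more over all their nuclei had counts in 50.0 to 100% of them, and the 4 under 50 CPM in 0 to 39.1%, the 0 being a date with no Arc count in any nucleus. All 28 such nuclei of the DG 1 h date had a count. Their level was 0.07% to 0.36% of the date's Arc CPM on all dates with Arc counts but 2, at 0.76% and 6.38%. Shares of nuclei with any Arc count, such as 100% of DG FOS- nuclei against 42.3% in HC DG, move with date and depth, and at 100000 counts per nucleus they would be 18.9% and 9.34%. The dates at 500 CPM or more held only DG nuclei, from the 1 h or the ARC-sorted groups. Those under 50 CPM held mostly interneurons, HC DG or PROX1-CTIP2- nuclei. Date, cell type and sort thus cannot be told apart here. The origin of these counts was not tested.

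**Figure D5:**
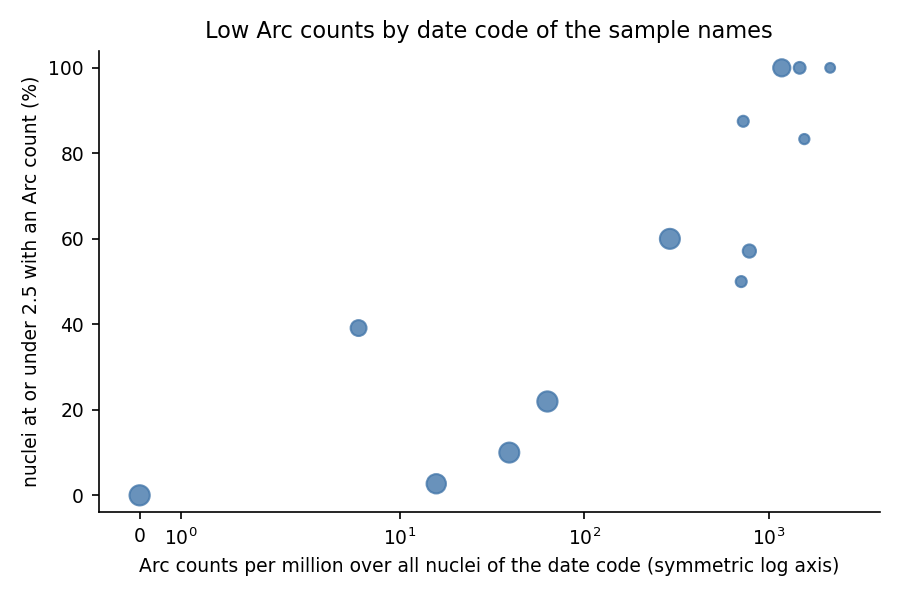
Share of not Arc-high nuclei with an Arc count (percent) against the Arc CPM over all nuclei of a date code (symmetric log axis); points are date codes, larger with more such nuclei. Dates at 500 CPM or more lie between 50.0 and 100%, and those under 50 CPM between 0 and 39.1%.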

How the data were processed

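Single nuclei were isolated by Dounce homogenization, stained, sorted and sequenced by SmartSeq2. Per the labels, the authors' processing names Bowtie, RSEM and mm10, with versions not given in the sources used here. The deposited expected counts (estimated counts per gene, rounded here) and the deposited log2 values (log2(TPM+1)) were used.

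Nuclei were kept at 100000 or more aligned reads and with 4000 or more genes over 1 on the log2(TPM+1) scale, which left 818 of 912. No doublet caller was run. Depth was 142275 to 5885216 counts per nucleus. Shares and floors cover counting error only. Cell types are the authors' predictions. Counts were summed per mouse and group (at least 2 nuclei) and tested with edgeR 4.0.16 (TMM, filterByExpr, quasi-likelihood; R 4.3.3), Benjamini-Hochberg adjusted over all genes at 0.05. The DG, CA1, VIP, Sub and CA3 nuclei were fitted separately, and cell types were compared in a joint fit. Groups with 1 mouse take their spread from the others. DESeq2 1.42.0 and limma 3.58.1 were alternatives. Mean levels per mouse were compared by exact permutation. Whether mice are separate animals follows their numbers in the labels. Mice that gave several sums pair them: deviations correlated at a mean r of 0.043 within a mouse in the DG (4 pairs) against -0.005 between mice.

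Gene lists cover early activity genes, genes upstream of Arc transcription and partners of ARC. Called members were named and, where fewer than 3 were called, those of largest mean CPM; the 10 genes of highest r with Arc were also ranked. The gene and lists were chosen with earlier results of these data known. Scripts were tested on simulated data.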

Additional observations from a re-analysis of the deposited data

Results flagged for a closer look

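Over 12 group measures of Arc, 3 had a mouse far from the others, by its gap to the next mouse. All 3 were in A>A ARC+FOS- nuclei (6 mice). Several measures describe the same nuclei, and shares cannot exceed 100%, so the rate of flags by chance is not known. One mouse (number 19) had 100% Arc-high nuclei, with the next at 90.5%, and the smallest SD of Arc level, 1.12, with the next at 2.85. Another mouse (number 25) had an Arc count in 95.2% of its nuclei, against 100% in the others, a flag that rests on 1 of its 21 nuclei.

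Of the 94 nuclei under the thresholds on reads or genes, which enter no main comparison, 56 were Arc-high. Of these, 22 were among the 37 nuclei removed at 5 h, whose median depth was 1971600 counts. Of the 6 HC nuclei removed, 0 were Arc-high.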

How the results depend on the processing

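Against HC, Arc kept its call in all 11 alternatives for DG FOS+ at 1 h, all 13 for the 4 h and all 16 for the 5 h nuclei (adjusted p up to 1.04e-04, 8.89e-05 and 9.14e-04). With the animal as replicate block, DG 1 h FOS+ against FOS- kept its size (10.58) but not its call (adjusted p 0.144), and the A>A difference in mean level was 1.54 (p = 0.125, the smallest possible); the block changed no other Arc call. DESeq2 called 3 further comparisons: 5 h against 4 h (-1.95), CA3 FOS+ against FOS- (8.55) and HC CA1 against HC VIP (24.5, where HC VIP has no count). Uncalled values changed sign as follows. DG 1 h FOS- against HC was 2.05 without FOS- nuclei above 2.5, 0.50 by limma and -1.91 to 1.48 without 1 mouse. CA1 FOS- against HC was -0.49 without those nuclei, -1.18 with sums of at least 5 nuclei and -0.93 to 5.12 without 1 mouse. HC CA1 against HC DG was -0.65 without those nuclei and -1.24 to 6.12 without 1 mouse. The difference of differences, CA1 against VIP, was 3.98 without those nuclei, 1.42 by limma and -7.64 to 6.84 without 1 mouse. The cause was not tested. Joint fits without 1 mouse kept the dispersion trend of the full fit. The subiculum FOS+ against FOS- value was 2.13 to 9.82 without 1 mouse. Without 1 mouse the A>A mean difference ran from 0.97 to 1.43. Counts of genes called moved with the tool: 11 by edgeR, 1019 by DESeq2 and 107 by limma for DG FOS+ against FOS-, and 0 to 63, 122 to 1906 and 0 to 1835 over all comparisons. Of 296 alternative values of called list genes, 243 kept the call, 53 lost it and 0 changed sign. With 1 or 2 mice in several groups, the spread between mice is poorly known.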
